A study of Homo sapiens with 19 samples.

Results

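S100 genes encode small calcium-binding proteins, and most of them lie in a cluster on the long arm of chromosome 1, at 1q21. H3K27ac, acetylation of lysine 27 on histone H3, marks active promoters and enhancers, so peaks of this mark were examined at 9 genes of the cluster: S100A4, S100A6, S100A8, S100A9, S100A10, S100A11, S100A12, S100A13 and S100A16. They were located by their GENCODE v44 annotation on hg38. They are 9 of 17 S100 genes at 1q21 and 9 of 20033 protein-coding genes on chromosomes 1 to 22, X and Y. A peak was placed at a gene when it lay within 500 bp of any annotated transcription start site (TSS).

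The peak lists came from chromatin immunoprecipitation and sequencing of 4 human leukaemia cell lines. K562 comes from chronic myelogenous leukaemia, and the remaining lines, HL-60, Molm13 and OCI-AML3, come from acute myeloid leukaemia (AML). HL-60 and Molm13 were untransduced, whereas OCI-AML3 and K562 carried dCas9-KRAB, a catalytically dead Cas9 fused to a transcriptional repressor, together with an empty single guide RNA (sgRNA) vector and were sorted for both fluorescent reporters. Line and vector therefore cannot be told apart. Each line had 1 library, so no test between lines was possible, and the depth behind each list was unknown. A further list, of dCas9 in K562 cells with sgRNAs, is described at the end, and the remaining 14 of 19 samples were not analysed here.

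S100A8 and S100A9 form calprotectin, the main calcium-binding complex of neutrophils and monocytes, and S100A12 is a related calgranulin. These secreted proteins act as danger signals through the receptors TLR4 and AGER. S100A10 and S100A11 bind annexins at membranes, S100A4 binds non-muscle myosin, and S100A6 binds CACYBP. S100A13 takes part in the release of proteins that lack a signal peptide.

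Promoters of 6 of the 9 genes are shown first. Each sequence gives the 250 bases before a RefSeq start (GRCh38.p14), written 5′ to 3′ on the gene's strand. Capitals mark TTGCNNAA and TTNNGNAA, forms of the C/EBP motif, GGAAGT, an ETS motif that PU.1 can bind, and TATAAA, the TATA box, each on either strand. The 6 were chosen as examples of peak patterns, from a peak in every list (S100A11 and S100A4) through AML lists only (S100A9), OCI-AML3 only (S100A8) and K562 only (S100A16) to no list (S100A12).
S100A9 (chr1:153357604-153357853, plus strand): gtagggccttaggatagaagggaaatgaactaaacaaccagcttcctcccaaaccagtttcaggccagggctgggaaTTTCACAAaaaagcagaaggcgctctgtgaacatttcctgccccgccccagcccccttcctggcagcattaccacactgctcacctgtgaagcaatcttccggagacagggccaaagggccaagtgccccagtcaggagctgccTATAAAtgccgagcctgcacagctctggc
S100A12 (chr1:153375622-153375871, minus strand): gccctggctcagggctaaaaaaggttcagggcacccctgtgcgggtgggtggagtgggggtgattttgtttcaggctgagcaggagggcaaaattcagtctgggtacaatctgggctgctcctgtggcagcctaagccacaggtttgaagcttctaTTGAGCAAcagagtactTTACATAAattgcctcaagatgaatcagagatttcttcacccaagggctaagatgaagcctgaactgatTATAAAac
S100A8 (chr1:153391074-153391323, minus strand): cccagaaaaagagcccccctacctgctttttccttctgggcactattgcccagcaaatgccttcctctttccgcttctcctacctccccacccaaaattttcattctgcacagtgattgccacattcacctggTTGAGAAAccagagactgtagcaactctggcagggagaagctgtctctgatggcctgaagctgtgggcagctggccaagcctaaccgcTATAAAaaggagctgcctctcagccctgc
S100A4 (chr1:153545807-153546056, minus strand): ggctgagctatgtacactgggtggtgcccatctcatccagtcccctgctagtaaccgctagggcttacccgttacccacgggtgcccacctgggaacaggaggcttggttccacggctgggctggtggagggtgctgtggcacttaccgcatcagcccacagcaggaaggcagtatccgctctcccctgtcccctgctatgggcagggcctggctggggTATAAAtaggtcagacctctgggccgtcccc
S100A11 (chr1:152037005-152037254, minus strand): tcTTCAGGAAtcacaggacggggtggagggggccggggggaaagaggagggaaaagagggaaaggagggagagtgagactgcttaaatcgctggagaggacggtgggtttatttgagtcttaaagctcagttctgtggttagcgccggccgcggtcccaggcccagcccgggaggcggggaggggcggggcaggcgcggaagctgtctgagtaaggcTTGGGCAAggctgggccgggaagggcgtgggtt
S100A16 (chr1:153609356-153609605, minus strand): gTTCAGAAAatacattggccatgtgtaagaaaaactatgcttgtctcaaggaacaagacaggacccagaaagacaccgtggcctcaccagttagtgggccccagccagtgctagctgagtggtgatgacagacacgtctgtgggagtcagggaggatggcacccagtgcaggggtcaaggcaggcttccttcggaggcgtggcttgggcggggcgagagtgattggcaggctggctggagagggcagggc

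The 9 genes have 14 promoter windows in RefSeq, and the 3 windows of S100A8 overlap each other. Of the 14 windows, 2 held TTGCNNAA and 8 held the looser TTNNGNAA, compared with 9.05% and 33.2% of 35116 promoters. TTGCNNAA was found in the S100A12 and S100A11 windows. With both strands searched, every match of TTGCNNAA is by definition also one of TTNNGNAA. TATAAA was present in 6 windows against 10.7% of promoters, among them those of S100A9, S100A12, S100A8 and S100A4. GGAAGT was present in 2 windows against 19.5%, a start of S100A8 and one of S100A13 that are not shown, while 0 windows held AGATAA, which GATA factors recognise, against 9.17%. These are matches of letters in the window and say nothing of binding.

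The CpG content of the promoters varied among the genes. Over the 300 bases around each start, the observed-to-expected CpG ratio had a median of 0.579 over all promoters, with quartiles of 0.229 and 0.856. S100A10, S100A11 and S100A6 lay above this median at 0.84, 0.781 and 0.866. S100A4 reached 0.293, S100A9 0.218 and S100A12 0.053. The 3 starts of S100A8 had ratios of 0.0912 to 0.101, and the starts of S100A16 of 0.118 and 0.338. S100A13 had 0.375 and 0.429 at its starts within the GENCODE gene and 0.848 at a further RefSeq start, which lay under a peak in all 4 lists. S100A4, at 0.293, had a peak in every list, whereas S100A10, at 0.84, had one in Molm13 and OCI-AML3. Other genes went the other way. S100A11 and S100A6, above the median, had a peak in 4 and 3 lists, and S100A8 and S100A12, below the lower quartile, in 1 and 0. Whether CpG content goes with the peaks was not tested.

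The genes fell into groups by the lists in which they had a TSS peak. HL-60 had a peak at 3 of 9 genes, Molm13 at 5, OCI-AML3 at 6 and K562 at 5. Over all protein-coding genes a TSS peak was present for 44.7% in HL-60 and 53.9% in Molm13, and 57.7% in OCI-AML3 and 55.9% in K562, and the counts for the S100 genes are no result about them as a set. S100A11 and S100A4 had a peak in all 4 lists, as 40.5% of genes did. S100A9 had one in the 3 AML lists only, as 2.22% of genes did, and S100A8 in OCI-AML3 only, as 1.95% did. S100A10 had one in Molm13 and OCI-AML3 only, which holds for 2.78% of genes. S100A6 was marked in Molm13, OCI-AML3 and K562 (7.15% of genes), and S100A16 and S100A13 in K562 only (4.78%). S100A12 had no peak in any list, a state shared by 35.4% of genes.

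**Figure D1:**
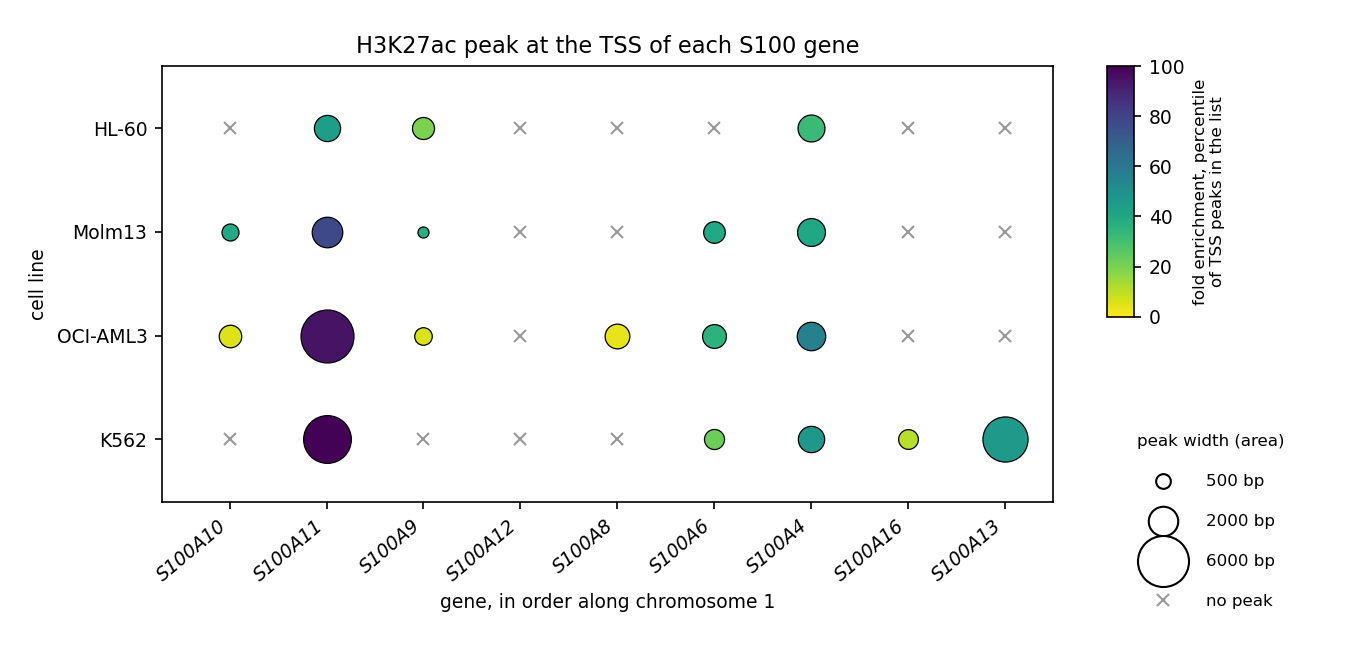
H3K27ac peak at the TSS of the 9 S100 genes (horizontal axis, in order along the chromosome) in 4 cell lines (vertical axis). Colour gives the percentile of the peak's fold enrichment among TSS peaks of the same list, and circle area its width in bp. S100A11 and S100A4 have a circle in every row, and S100A12 has a cross, no peak, in every row.

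Where several peaks lay at a gene's starts, the one of highest fold enrichment is given. Fold enrichment is the authors' ratio over local background, averaged over a broad peak, and it is not comparable as a level between lists. It is therefore given with its percentile among TSS peaks of the same list. The percentile is the share of those peaks with a lower value, with tied values, its own included, counted in part.

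Among the calgranulin genes, S100A9 was marked in the AML lists, with fold enrichments below the median TSS peak of each. It lies at chr1:153357854-153361023 on the plus strand, with a single annotated start. In HL-60 its peak was 1118 bp wide with a fold enrichment of 3.61, at percentile 19.7. In Molm13 the peak was 281 bp wide with a fold enrichment of 4.84, at percentile 37.2, and it began 390 bp downstream of the start. Its width lay at percentile 1.36 of TSS peaks in that list. In OCI-AML3 it was 711 bp wide with 2.42, at percentile 5.68. In K562 the nearest peak lay 6871 bp from the gene. The promoter sequence shown above thus lay under a peak in HL-60 and OCI-AML3 but not in Molm13.

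S100A8, the partner of S100A9, lies on the minus strand at chr1:153390032-153391073, beyond S100A12. It had a peak only in OCI-AML3, 1405 bp wide, with a fold enrichment of 2.34 at percentile 3.66 and a q-value of 0.00986. The nearest peak to the gene was 2776 bp away in Molm13, 31393 bp in HL-60 and 39049 bp in K562. S100A8 and S100A9 were therefore marked together in OCI-AML3 alone. Both OCI-AML3 peaks were absent when only peaks with q below 0.001 were kept, and when OCI-AML3 was reduced to the 20814 strongest peaks, the length of the HL-60 list. The S100A9 peak of HL-60, with a q-value of 0.00424, was also absent at that q limit, and no peak touched the start itself in Molm13.

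S100A12, at chr1:153373711-153375621, lies between them. The nearest peak to it was 15072 bp away in HL-60 and 9810 bp in Molm13, and 9479 bp in OCI-AML3 and 22728 bp for K562. In Molm13 and OCI-AML3 that peak was an intergenic region between S100A12 and S100A8. It spanned 1826 bp in Molm13 with a fold enrichment of 3.41, and 2266 bp in OCI-AML3 with 3.02. Neither HL-60 nor K562 had a peak there. The central 300 bases of the 1826 bp shared by the lists are shown because no other region between S100A9 and S100A8 was called in any list. They contain 2 CpGs and none of the motifs above, so no letters are in capitals.
Region between S100A12 and S100A8 (chr1:153386194-153386493, hg38, plus strand): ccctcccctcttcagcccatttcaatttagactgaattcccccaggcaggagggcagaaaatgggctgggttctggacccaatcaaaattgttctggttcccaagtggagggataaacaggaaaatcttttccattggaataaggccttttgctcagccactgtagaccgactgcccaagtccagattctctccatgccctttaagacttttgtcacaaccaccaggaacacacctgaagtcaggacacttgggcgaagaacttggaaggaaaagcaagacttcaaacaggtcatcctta

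**Figure D2:**
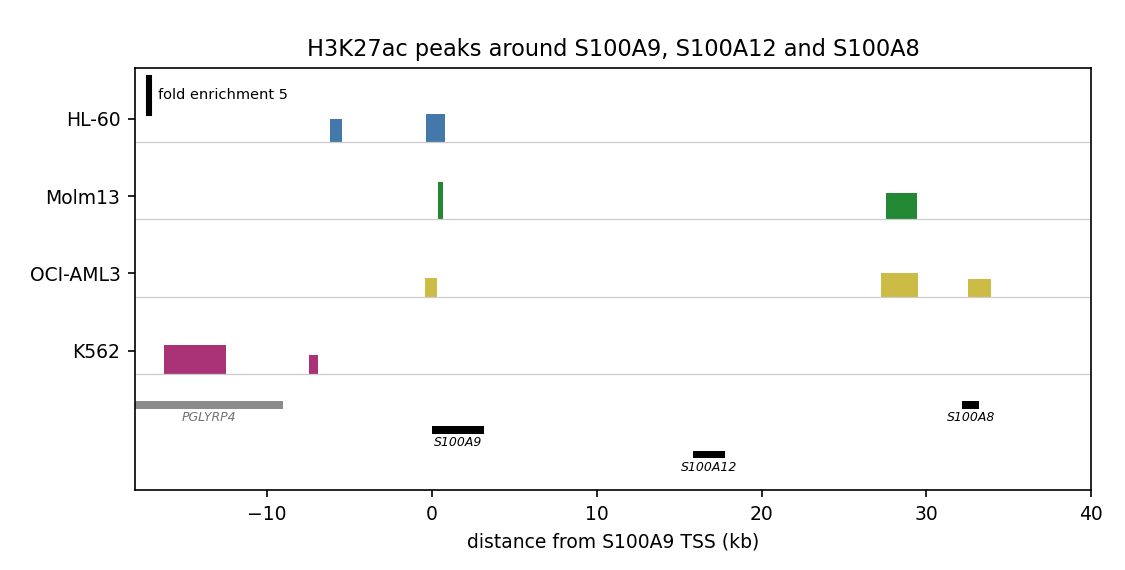
H3K27ac peaks around the calgranulin genes, plotted by distance in kb from the S100A9 TSS, with bar height giving fold enrichment in each line and genes drawn below. HL-60, Molm13 and OCI-AML3 have a peak at S100A9, OCI-AML3 has one at S100A8, and Molm13 and OCI-AML3 share one between S100A12 and S100A8.

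With the stronger peak taken at each gene and GENCODE starts, S100A11 had the highest fold enrichment of the 9 genes in every list. In HL-60 this rests on its upstream start, since the wider peak at its canonical start reached 3.59, below S100A4 at 4.09 and S100A9 at 3.61. With the RefSeq start described later for S100A13, that gene exceeded S100A11 in HL-60 and Molm13. S100A11 has 2 starts, and each list held a peak at both. At the upstream start, chromosome 1 position 152047907, widths were 1582 bp in HL-60 and 2153 bp in Molm13, and 2727 bp in OCI-AML3 and 2814 bp for K562. At the downstream, canonical start, position 152037004, they were 4452, 6049, 6463 and 5256 bp in the same order. The fold enrichment of the stronger of them was 4.59 in HL-60 and 7.92 in Molm13, and 5.58 in OCI-AML3 and 5.32 in K562. These values lay at percentiles 44.8, 77.8, 95.3 and 99.3. The upstream start had the stronger peak in HL-60 and Molm13, and the canonical start in OCI-AML3 and K562.

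S100A10, the annexin A2 partner, is the neighbour of S100A11 at that end of the cluster. Its Molm13 peak was 666 bp wide with a fold enrichment of 4.98 at percentile 39.5, and lay 282 bp from the nearest start. Its OCI-AML3 peak was 1169 bp wide with 2.41, at percentile 5.38. HL-60 and K562 had no peak at its starts, and their nearest peaks to the gene were 36277 and 10052 bp away. Of the 7 peak regions from S100A10 to S100A11, 5 were called in Molm13 and OCI-AML3 only, and the other 2 were the S100A11 starts, in all 4 lists. When overlapping peaks were merged over the genome, 10.1% of regions were in Molm13 and OCI-AML3 only and 11.7% in all 4 lists. The difference was not tested, and the counts describe few regions and are no result about this end of the cluster.

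S100A4, which binds non-muscle myosin and is linked to cell motility, had peaks of similar width in all lists, 1673 bp in HL-60 and 1790 bp in Molm13, and 1867 bp in OCI-AML3 and 1597 bp for K562. Their fold enrichments of 4.09, 5.05, 3.92 and 3.39 lay at percentiles 32.1, 40.6, 56.9 and 46.8. S100A4 was thus marked in every list at a middling position.

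S100A6, which binds CACYBP, lies beyond S100A5 from it. Its peak was 1079 bp wide with 5.01 in Molm13, 1308 bp with 3.33 in OCI-AML3 and 925 bp with 2.86 in K562, at percentiles 39.9, 35.8 and 22.4. The K562 peak was lost at q below 0.001. In HL-60 the nearest peak to S100A6 was that of S100A4, 8549 bp away.

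The other end of the cluster was marked at S100A16 and S100A13 in K562. The S100A16 peak was 896 bp wide with a fold enrichment of 2.59, at percentile 10.8, and its q-value was 0.00776. It lay over a start other than the canonical one and was lost at q below 0.001, at the canonical start and with the list shortened to 20814 peaks. The S100A13 peak was 4692 bp wide with 3.38, at percentile 46.1, and also covered a start of S100A1. RefSeq gives S100A13 a further start outside the GENCODE gene, at position 153634361. A peak covered that start in every list, together with the TSS of CHTOP, with fold enrichments of 9.04 in HL-60 and 10.3 in Molm13, and 4.65 in OCI-AML3 and 3.65 in K562, at percentiles 94.2, 92.3, 80.1 and 60.5. With RefSeq starts the counts became 4, 6, 7 and 5 of 9 genes in the same order.

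**Figure D3:**
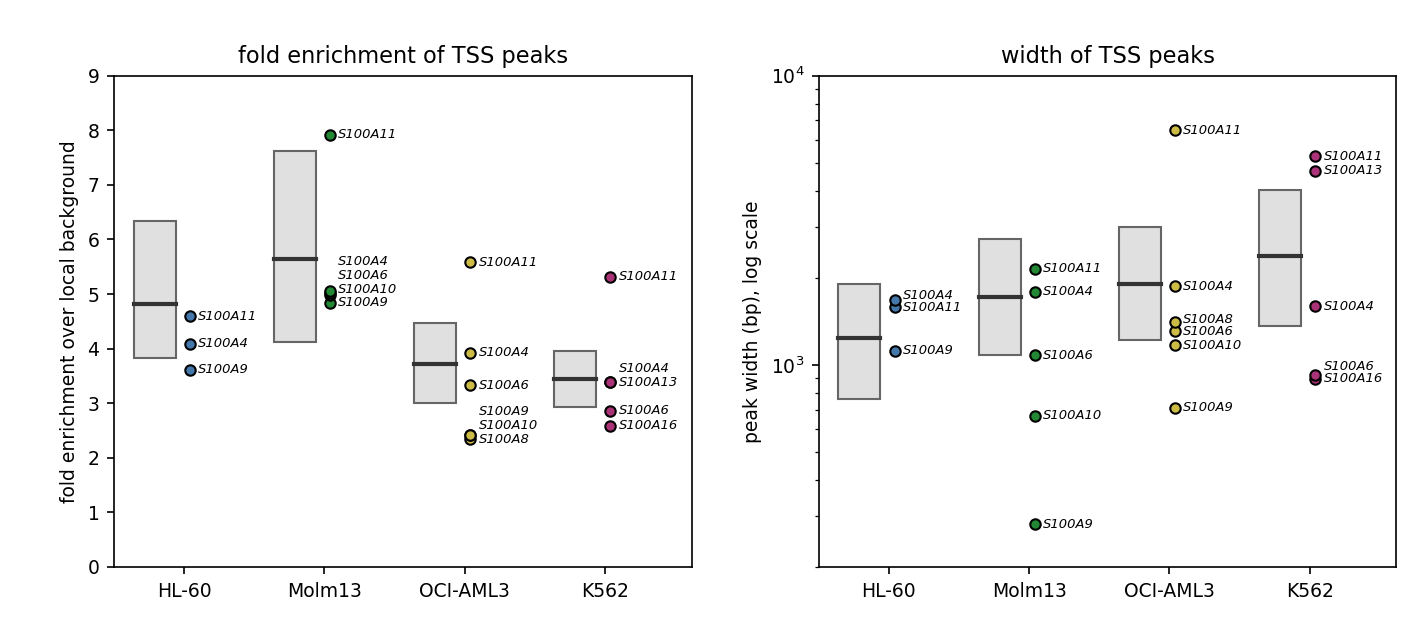
Fold enrichment over local background (left) and peak width in bp on a log scale (right) of TSS peaks. Grey boxes give the quartiles and bars the median over the TSS peaks of all protein-coding genes of a list, and points are the S100 genes with a peak, each a single peak without error bar. S100A11 is drawn highest in fold enrichment in every list, from 4.59 to 7.92, by the stronger of its peaks, but its canonical start in HL-60 reached 3.59, below S100A4 and S100A9.

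Compared with other TSS peaks, most of the S100 peaks were of middle or low fold enrichment. The median over the genes with a peak was 4.09 in HL-60 and 5.01 in Molm13, and 2.88 in OCI-AML3 and 3.38 in K562, beside 4.82, 5.65, 3.72 and 3.45 over the TSS peaks of those lists. The corresponding median percentiles were 32.1, 39.9, 20.7 and 46.1. Median widths were 1582, 1079, 1356.5 and 1597 bp, beside 1240, 1722, 1910 and 2383 bp. The order of the genes within a list rests on single peaks.

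Across the whole cluster, from S100A10 to S100A13 and 1650 kb long, HL-60 held 10 peaks, Molm13 26, OCI-AML3 22 and K562 17. With every list shortened to 20814 peaks the counts were 10, 15, 14 and 7, so K562 then held fewer than HL-60. In the full lists, peaks covered 0.747%, 1.94%, 1.98% and 1.82% of the cluster. The same lists covered 0.78%, 1.89%, 2.27% and 2.49% of chromosomes 1 to 22, X and Y. The peaks were not spread evenly. The 65.0 kb from S100A10 to S100A11 were covered to 7.45% in HL-60 and 17.4% in Molm13, and 21.5% in OCI-AML3 and 10.6% in K562. The stretch from S100A9 to S100A13 was covered to 0.988%, 5.46%, 5.74% and 5.43%.

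Between S100A11 and S100A9 lie the genes of the epidermal differentiation complex, which build the outer layer of skin. Peaks wholly within these 1310 kb covered 0.247% in HL-60 and 0.33% in Molm13, and 0.0873% in OCI-AML3 and 0.545% in K562. Of 47 protein-coding genes there, 1 had a TSS peak in HL-60 (SPRR3), 1 in K562 (SPRR2D) and 0 in Molm13 and OCI-AML3. Over all protein-coding genes the share was 44.7% to 57.7%, and the difference was not tested. Both peaks were weak, with fold enrichments at percentile 17.4 for SPRR3 and 8.08 for SPRR2D, the latter with a q-value of 0.0499. The widest peak within the stretch, 3754 bp, was found in K562 only. It overlapped PGLYRP4 but lay 2603 bp from the nearest TSS of that gene.

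**Figure D4:**
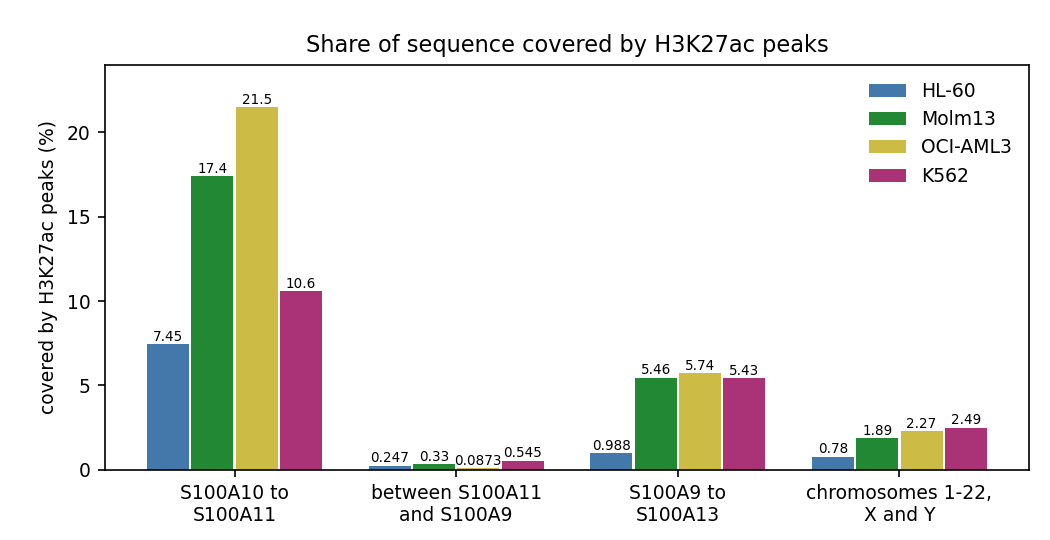
Percentage of sequence covered by H3K27ac peaks (vertical axis) in 3 segments of the cluster and in chromosomes 1 to 22, X and Y, for each line (bars, from 0, 1 library each). The S100A10 to S100A11 segment stands at 7.45% to 21.5%, and the stretch between S100A11 and S100A9 at 0.0873% to 0.545%.

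Merging overlapping peaks over the lists gave 47 regions in the cluster. Of these, 29 (61.7%) were in 1 list, 11 (23.4%) in Molm13 and OCI-AML3, 4 (8.51%) in 3 lists and 3 (6.38%) in all lists. Of the 74697 regions merged in the same way over chromosomes 1 to 22, X and Y, 63.9% were in 1 list, 10.1% in Molm13 and OCI-AML3 only, 9.05% in 3 lists and 11.7% in all lists. The share in 1 list was thus near that of the genome, and no difference between cluster and genome was tested. The 3 cluster regions shared by all were the 2 S100A11 starts and the S100A4 start. K562 held 12 of the regions found in 1 list, Molm13 8, HL-60 5 and OCI-AML3 4. The same split by line is not given over the genome, so these counts are no result about the cluster. Of 26 Molm13 peaks, 17 (65.4%) overlapped an OCI-AML3 peak, beside 68.4% of all Molm13 peaks, and 17 of 22 OCI-AML3 peaks (77.3%) overlapped one of Molm13, beside 62.7%. Of 17 K562 peaks, 5 (29.4%) overlapped an OCI-AML3 peak, beside 40% of all K562 peaks, and 5 a Molm13 peak, beside 36.6%. Of 10 HL-60 peaks, 5 (50%) overlapped each of Molm13 and OCI-AML3, beside 62.1% and 64.4%, while 19.2% of Molm13 and 22.7% of OCI-AML3 peaks overlapped one of HL-60, beside 35.0% and 33.6%.

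**Figure D5:**
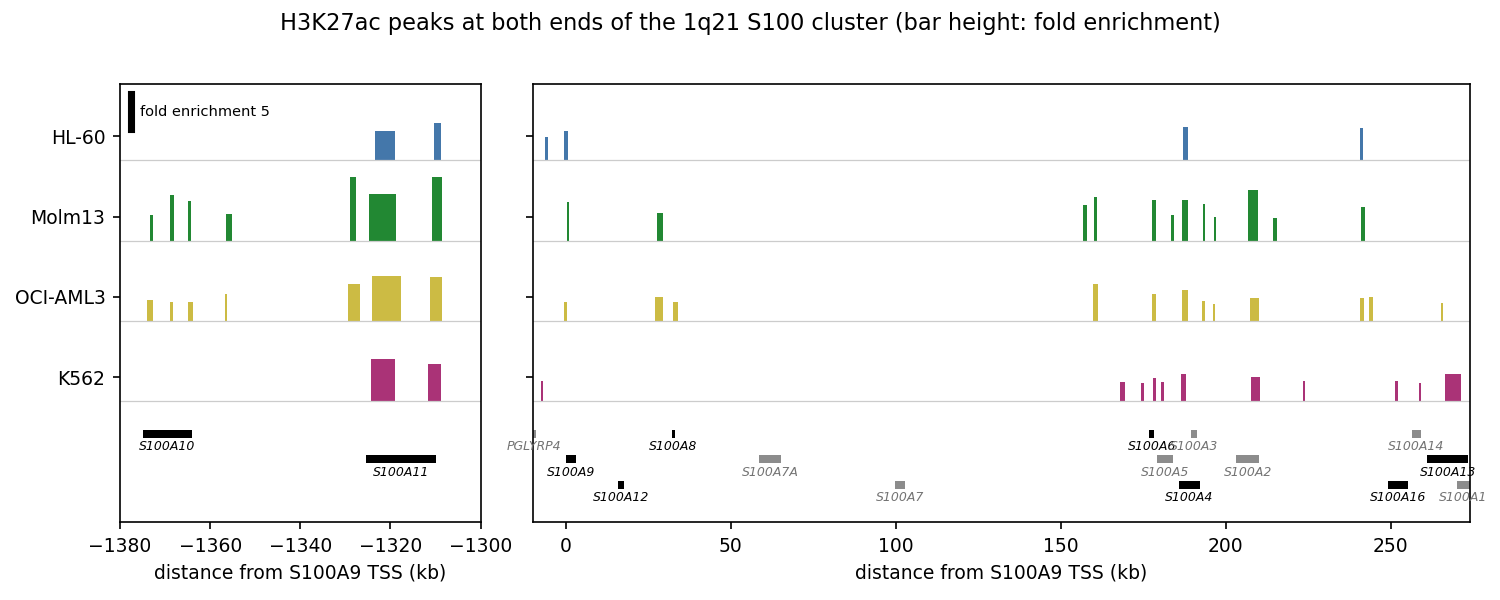
H3K27ac peaks at both ends of the cluster by distance in kb from the S100A9 TSS (bars at true width or a drawn minimum, height giving fold enrichment), with S100 genes studied in black and other genes in grey. Left, S100A10 and S100A11. Right, S100A9 to S100A13, where S100A4 has a peak in every line, and S100A6 and S100A2 have one in Molm13, OCI-AML3 and K562.

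Of the 8 other S100 genes of 1q21, 0 had a TSS peak in HL-60, 2 in Molm13 (S100A2 and S100A5), 1 in OCI-AML3 (S100A2) and 3 in K562 (S100A1, S100A2 and S100A14). S100A3, S100A7, S100A7A and S100A7L2, the last annotated as a pseudogene, had none in any list. Of 4 S100 genes elsewhere, S100B had a peak in the 3 AML lists, as S100A9 did, and S100P in Molm13, OCI-AML3 and K562, as S100A6 did. S100Z had one in K562 and S100G in 0 lists. The pattern of S100B held for 2.22% of all protein-coding genes and that of S100P for 7.15%. Beside the 44.7% to 57.7% of all protein-coding genes with a TSS peak, these counts describe few genes and are no result about them as sets.

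Genes whose products interact with S100 proteins were counted in the same way. Of 10 partners and receptors, 8 had a TSS peak in HL-60 and 9 in Molm13, and 9 in OCI-AML3 and 8 in K562. Beside the 44.7% to 57.7% of all protein-coding genes these counts are a description of a chosen list and no result about it as a set. TLR4, a receptor for S100A8 and S100A9, had one in the AML lists and not in K562. ANXA2, the partner of S100A10, had none in HL-60, where S100A10 also had none, but had one in K562. The receptor AGER had one only in K562, in a 12135 bp peak that covered neighbouring genes as well.

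Genes of the myeloid and erythroid lineages were examined as a check of the labelled lines. Of 5 myeloid regulators, 4 had a TSS peak in HL-60, 5 in Molm13 and OCI-AML3, and 2 in K562, which lacked peaks at CEBPA, CEBPD and CEBPE. CEBPD also lacked one in HL-60. The 3 erythroid regulators GATA1, KLF1 and TAL1 had peaks only in K562. Of 8 myeloid marker genes 5, 6, 7 and 4 had a peak in HL-60, Molm13, OCI-AML3 and K562, and of 7 erythroid markers 1, 1, 1 and 7. Keratinocyte markers had 0 of 4 in every list. Beside the 44.7% to 57.7% of all protein-coding genes, these counts describe chosen lists and are no result about them as sets. The 4 of 8 myeloid markers in K562 lay near its share of 55.9% of all genes. Whether these differences bear on the S100 peaks was not tested.

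The percentile pattern of S100A9 over the lists was nearest that of TMTC2, at a Euclidean distance of 7.52, followed by ZNF594 and DNAH7. For S100A8, marked only in OCI-AML3, the nearest were OVGP1, FXYD1, WWC1, MESP1 and NXNL2, and that likeness rests on 1 value. In K562 carrying 4 sgRNAs against LTR2B, a retroviral long terminal repeat, 0 of 395 dCas9 peaks lay in the cluster. The nearest was 701 kb away, and 0 of the 9 genes had a peak within 50 kb. The share of all protein-coding genes with a dCas9 peak within 50 kb is not given here. These counts are therefore no result about the cluster or its genes.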

How the data were processed

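H3K27ac and dCas9 peak lists were used as deposited. Per the labels and methods, the authors used Trim Galore for trimming and Bowtie2 for alignment to hg38, retained reads with a unique position and ran MACS2 (2.1.1) at q 0.05, in broad mode for H3K27ac. The control library was not given in the sources used here. The deposited lists hold a score made from the q-value, a fold enrichment (ratio over local background), and p-values and q-values as −log10 for each peak. The dCas9 list also holds summit offsets, which the authors give as positions in the peak. Some deposited peaks have q up to 0.0995, and 5.46% to 15.0% of a list have q above 0.05. Since the lists hold no read counts, depth was unknown and no interval could be given.

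TSSs came from GENCODE v44 and promoter sequences from RefSeq (GRCh38.p14), which matched the hg38 bases at the 14 windows of the 9 genes. Peaks on chromosomes 1 to 22, X and Y were used, with a window of 500 bp around any TSS, and coordinates are 1-based. Regions were merged at 1 bp of overlap. The cluster ran from the start of S100A10 to the end of S100A13. The 9 genes and all gene lists were chosen with earlier results of these data known, and some results of the marker lists and of the likeness search are not reported here. With 1 library per line, no test was made and all comparisons are descriptions. The likeness of genes was the Euclidean distance between percentiles, with no peak set to 0. The TSS search was tested on simulated peaks. Python 3.11.15, NumPy 2.4.6, pandas 2.3.3 and matplotlib 3.10.9 were used.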

Additional observations from a re-analysis of the deposited data

How the results depend on the processing

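The alternatives were a TSS window of 0 or 1000 bp, canonical TSSs only, peaks with q below 0.05 or 0.001, lists shortened to an equal length of 20814 peaks, merging within 1 kb, a cluster extended by 50 kb, and RefSeq TSSs, the last chosen after seeing the data. With a 0 bp window Molm13 had a TSS peak at 3 genes, losing S100A10 and S100A9. With q below 0.001 K562 had 3, losing S100A16 and S100A6, and the cluster held 4 peaks in HL-60, 6 in K562, 14 in OCI-AML3 and 15 in Molm13, with 7.95 kb covered in HL-60. At equal length it held 10 in HL-60, 7 in K562, 14 in OCI-AML3 and 15 in Molm13. The 37 alternative values of the 19 fold enrichments, from the widest peak or the canonical TSS, stayed within 1.5 times the main ones. Only S100A11 had several peaks at its starts. For the other genes these settings could return only the same peak or none, so their unchanged values show nothing about stability. S100A16 in K562 had no peak at the canonical TSS and gave no value there. S100A11 in HL-60 gave 3.59 with either setting, below S100A4 and S100A9. No paired analysis was possible because no result came from a test. Depth, unknown here, limits which weak peaks could be called, so an absent peak is not shown to be an absent mark.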
